A study of Homo sapiens with 16 samples.

Results

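Enzalutamide (ENZ) was compared with its solvent in LNCaP prostate cancer cells that also received the androgen dihydrotestosterone (DHT). The members are the 2 libraries of ENZ.DHT and the 2 libraries of DHT, 4 of the 16 RNA sequencing libraries in the series. They were paired by the number, 3 or 7, in their labels, and what that number stands for is not given. The number 3 is called replicate 1 here and the number 7 replicate 2. All groups had 72 h in medium containing 5% fetal bovine serum, then 48 h in 5% charcoal-stripped serum, which holds little steroid, and then 48 h of treatment. DHT cells received 10 nM DHT and DMSO. ENZ.DHT cells received 10 nM DHT and 10 µM enzalutamide. The groups compared beside them are VEH (both solvents, ethanol and DMSO), ENZ.VEH (10 µM enzalutamide without DHT), BIC.DHT and APA.DHT (10 nM DHT with 10 µM bicalutamide or 10 µM apalutamide), each with 2 libraries. BIC.VEH and APA.VEH (10 µM bicalutamide or 10 µM apalutamide without DHT), also with 2 libraries each, enter the fit and its shared spread but no comparison. LNCaP is a single established line from a lymph node metastasis, so it stands for 1 genetic background. The labels call the replicates biological, but whether they came from separately started cultures on separate days is not given in the sources used here.

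Androgens are steroid hormones that act on transcription in prostate cells. They activate genes of prostate secretion, lipid synthesis and growth, and lower the level of others. Enzalutamide is an antiandrogen, a drug that competes with testosterone and DHT for hormone binding in the cell. The comparison therefore measures the levels of androgen-responsive genes when DHT is present with and without the antagonist.

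Levels are given as TPM, a unit in which a gene's estimated reads are divided by its length and scaled to a fixed total per library. Fold changes are differences of log2(TPM + 1), and 16636 genes that reached 1 TPM in at least 2 of 16 libraries were tested with limma, with the replicate number as a block. A gene was called at a Benjamini-Hochberg adjusted p under 0.05 over all genes tested. The 4 libraries had the markers of luminal prostate epithelium fixed as a check, KRT8, KRT18, KRT19, CDH1, EPCAM, HOXB13, FOXA1, FOLH1 and KLK3, while 5 of 14 markers of other cell types were at 0 in all 4, among them CD3E, COL1A2, DCN and TP63. The marker of another cell type with the highest level was COL1A1, at up to 27.5 TPM. Mitochondrial genes held 22.3% and 14.7% of the total in DHT and 19.4% and 16.9% in ENZ.DHT. Across genes, the log2(TPM + 1) levels of the replicates had a Pearson correlation of 0.981 in DHT and 0.964 in ENZ.DHT. Read depth cannot be recovered from TPM, so precision was judged from the spread between libraries alone.

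ENZ.DHT and DHT differed in many genes when the spread was estimated over all 8 groups. Of 16636 genes, 4863 were called (29.2%), 2211 higher (13.3%) and 2652 lower (15.9%) in ENZ.DHT than in DHT. A change of at least 2-fold was found in 398 genes called higher and 543 called lower, and of at least 8-fold in 4 and 9. The median log2 fold change was -0.01 over all genes tested. In 2106 of 2211 genes called higher and 2378 of 2652 called lower the libraries of the groups did not overlap (27.0% of all genes tested were called without overlap). The size of the change differed between the pairs: the median over the genes called lower was -0.74 in replicate 1 and -0.56 in replicate 2. Without the replicate block, 1605 genes were called (9.65%), 788 higher (4.74%) and 817 lower (4.91%), all of them among the 4863. The count was 2806 without DHT replicate 1 and 2793 without ENZ.DHT replicate 1. When the spread came from the 4 compared libraries alone, 66 genes were called with the block and 7 without it, so most calls rest on the spread shared over all 8 groups.

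**Figure D1:**
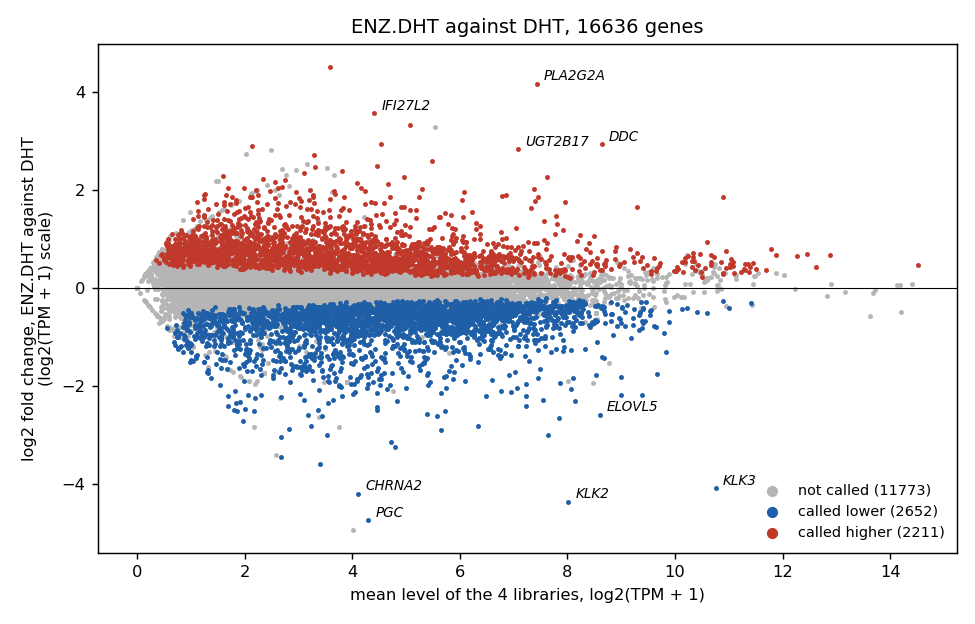
Log2 fold change of ENZ.DHT against DHT (y axis, log2(TPM + 1) scale) against the mean level of the 4 libraries (x axis, log2(TPM + 1)), with 1 point per gene tested. The 2211 genes called higher are red, the 2652 called lower are blue and the others are grey. KLK3, KLK2, PGC and CHRNA2 lie near -4 or below, and PLA2G2A lies above 4.

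Genes of prostate secretion were among those with the largest falls. KLK3 encodes prostate-specific antigen, the protease used as a blood marker of prostate cancer (chr19:50854915-50860764 in GRCh38.p14). It stood at 4102 and 2422 TPM in the DHT libraries and 296 and 115 TPM in the ENZ.DHT libraries, against 53.04 and 24.01 TPM in VEH. Both ENZ.DHT libraries lay far below both DHT libraries, and the log2 fold change was -4.09 (± 0.32 SE, adjusted p = 1.7e-05 by limma). KLK2, its neighbor and paralog (chr19:50873439-50880567), fell from 494 and 485 to 34.2 and 15.1 TPM, a log2 fold change of -4.37 (± 0.41 SE, adjusted p = 5.1e-05 by limma). The 2 kallikreins are similar in sequence, so how the counting split shared reads between KLK2 and KLK3 is uncertain. In bulk RNA, fewer cells with a transcript and less of it per cell cannot be told apart, and this holds for every level given here.

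The promoter of KLK3 is shown because the gene has the highest level among those with a large fall. It is the 300 bases from 250 before to 50 after the start given by RefSeq (GRCh38.p14, chr19:50854665-50854964, plus strand), 5′ to 3′, and the capitals mark AGAACA, the half-site of androgen and glucocorticoid response elements, at -170 to -165 from the start.
KLK3: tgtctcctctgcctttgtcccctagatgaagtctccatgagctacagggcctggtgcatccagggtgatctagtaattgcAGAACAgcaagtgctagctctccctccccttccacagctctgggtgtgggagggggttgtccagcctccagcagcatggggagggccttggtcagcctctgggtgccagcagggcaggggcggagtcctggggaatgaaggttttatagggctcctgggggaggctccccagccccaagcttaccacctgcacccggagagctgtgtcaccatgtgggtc
AGAACA was searched on both strands in the promoters that could be matched by symbol, 10584 of the 16636 genes tested. It was present in 8.97% of 2018 promoters of genes called lower, in 9.82% of 1415 promoters of genes called higher and in 8.87% of all 10584. The share among all genes called lower was thus about that of all genes tested. The letters were in 3 of 16 promoters of androgen-induced genes called lower (18.8%). In other lists given below they were in 4 of 17 promoters of ribosome biogenesis genes called lower (23.5%) and 0 of 13 of fatty acid synthesis. Counts this small do not set the androgen-induced list apart. The full palindromic androgen response element was in 0 of the 10584 promoters, and these letters say nothing on enhancers outside the window.

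TMPRSS2, a membrane serine protease whose promoter drives the ERG fusion in many prostate tumors (chr21:41464305-41508158), stood at 429 and 279 TPM in DHT and 49.03 and 37.1 TPM in ENZ.DHT. The ENZ.DHT levels lay close to those of VEH, 46.4 and 31.1 TPM, and the log2 fold change against DHT was -2.99 (± 0.11 SE, adjusted p = 1.2e-07 by limma). FKBP5, a co-chaperone of steroid receptors (chr6:35573590-35728583), was at 81.4 and 92.8 TPM with DHT and at 8.56 and 13.6 TPM with enzalutamide added. Its log2 fold change was -2.9 (± 0.12 SE, adjusted p = 2.9e-07 by limma), and VEH had 11.99 and 13.5 TPM. Other annotated genes overlap FKBP5, and whether strand was used in the counting is not given in the sources used here.

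PGC, the precursor of the protease gastricsin (chr6:41736711-41747397), had the largest fall of the genes that met the naming rule. It was at 43.3 and 30.8 TPM in DHT and below 1 TPM in both ENZ.DHT libraries, 0.66 and 0.19 TPM, and the log2 fold change was -4.74 (± 0.2 SE, adjusted p = 2.9e-07 by limma). CHRNA2, a subunit of the nicotinic acetylcholine receptor (chr8:27459756-27479261), stood at 30.6 and 32.6 TPM in DHT and 1.03 and 0.54 TPM in ENZ.DHT. Its log2 fold change was -4.21 (± 0.2 SE, adjusted p = 4.5e-07 by limma). ORM1, which encodes the plasma protein orosomucoid (chr9:114323098-114326479), was at 13.3 and 8.1 TPM in DHT and was listed at 0.11 and 0 TPM in ENZ.DHT. TUBA3D, an alpha-tubulin (chr2:131476119-131482934), had a log2 fold change of -3.6, ST6GALNAC1, a sialyltransferase of mucin-type glycans (chr17:76617407-76643757), one of -3.24, and the unnamed transcript AC092718.4 one of -3.14, all 3 called. ORM1 and TUBA3D have near-identical paralogs, so their own levels are uncertain.

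**Figure D2:**
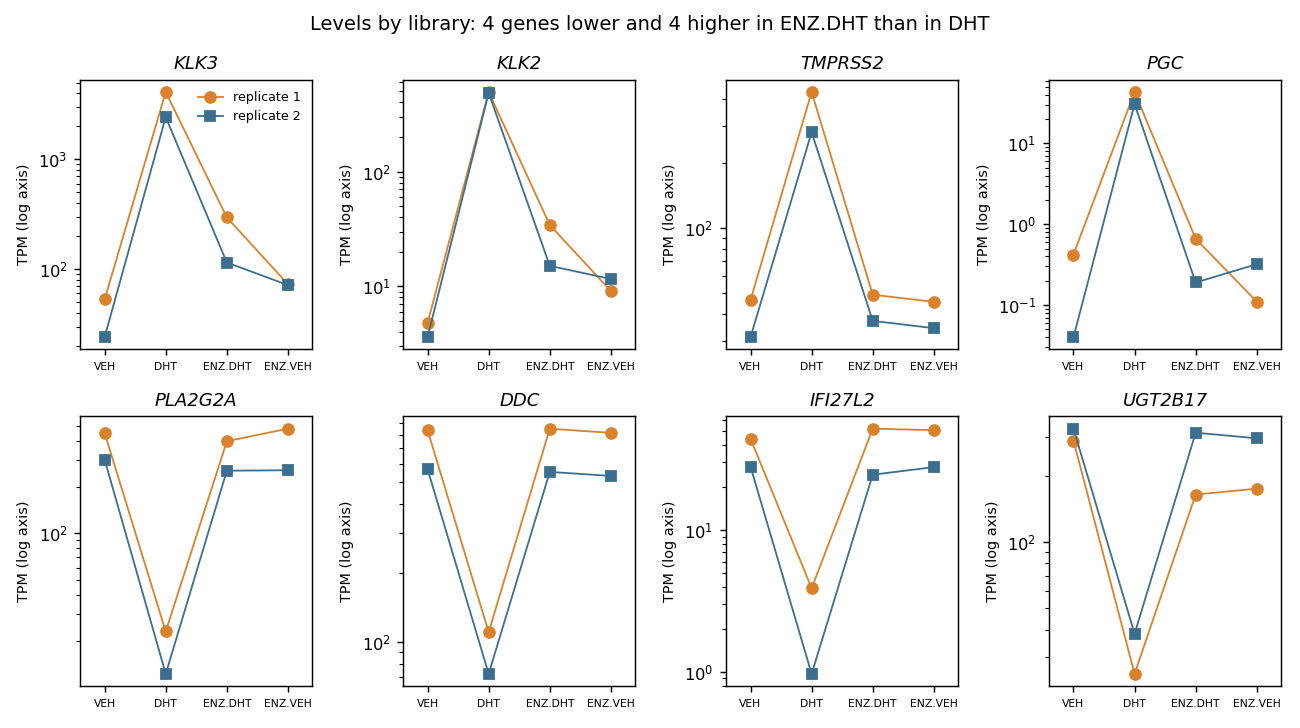
TPM (log axis) of KLK3, KLK2, TMPRSS2 and PGC (top) and PLA2G2A, DDC, IFI27L2 and UGT2B17 (bottom) in VEH, DHT, ENZ.DHT and ENZ.VEH, with 1 point per library and lines joining libraries of the same replicate number. The DHT libraries stand apart from the others, above them in the top row and below them in the bottom row.

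Among the genes that rose, PLA2G2A, a secreted phospholipase A2 (chr1:19975431-19980434), was at 23.1 and 12.3 TPM in DHT and 396 and 255 TPM in ENZ.DHT. Its log2 fold change was 4.16 (± 0.09 SE, adjusted p = 1.6e-09 by limma). DDC, the aromatic amino acid decarboxylase that makes dopamine and serotonin (chr7:50458442-50565405), was at 110.2 and 72.4 TPM in DHT and 853 and 552 TPM in ENZ.DHT, a log2 fold change of 2.93 (± 0.07 SE, adjusted p = 1.6e-09 by limma). Replicate 1 exceeded replicate 2 in both groups for PLA2G2A and DDC. IFI27L2, a member of an interferon-inducible family (chr14:94127781-94129604), stood at 3.89 and 0.97 TPM in DHT and at 51.8 and 24.5 TPM in ENZ.DHT, and the log2 fold change was 3.56 (± 0.16 SE, adjusted p = 4.1e-07 by limma). REG4, a secreted lectin (chr1:119794017-119811460), rose from 4.46 and 3.79 to 54.4 and 26.5 TPM, a log2 fold change of 2.93 (± 0.29 SE, adjusted p = 6.6e-05 by limma). UGT2B17, which conjugates and inactivates androgens (chr4:68537173-68576322), was at 25.2 and 38.4 TPM in DHT and 164 and 314 TPM in ENZ.DHT, a log2 fold change of 2.83 (± 0.18 SE, adjusted p = 3.7e-06 by limma). Here replicate 2 had the higher level, and reads shared with other UGT2B genes make its value uncertain.

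The naming rule also took 3 genes of short or unnamed transcripts. The small nucleolar RNA gene SNORA65 was listed at 4.32 and 9.34 TPM in ENZ.DHT and at 0 in both DHT libraries, and RNA5SP392, a 5S ribosomal RNA pseudogene, at 25.1 and 18.7 TPM and at 0 in both DHT libraries. AC091179.3 was at 2.27 and 9.71 TPM in DHT and 49.8 and 68.7 TPM in ENZ.DHT. These libraries were selected for polyadenylated RNA, and SNORA65 and RNA5SP392 lie inside RPL12 and CCDC9B. The adjusted p of these calls was between 0.02 and 0.037. Each call was lost without the block (adjusted p = 0.053 to 0.12) and without some of the libraries, with adjusted p of 0.158 for SNORA65, 0.174 for AC091179.3 and 0.069 for RNA5SP392 without DHT replicate 1.

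A list of 28 androgen-induced genes, chosen with earlier results of these data known and so no independent evidence of direction, had 24 members called lower and 0 called higher, against 15.9% and 13.3% of all genes tested. Its median log2 fold change was -1.97, close to equal in the pairs (-1.97 and -1.88), and 22 of its members were called lower without the block. The 24 ranged from -4.74 (PGC) to -0.94. In each of them the libraries of the groups did not overlap, against 8476 of 16636 genes tested. Members named after their values were seen are SLC45A3, the sugar transporter also called prostein, at 133 and 159 TPM in DHT and 27.7 and 33.6 TPM in ENZ.DHT, and KLK4, a further kallikrein, at 523 and 407 and 136 and 62.8 TPM. STEAP2, a metalloreductase, had the highest level among members not called, 226 and 238 TPM in DHT and 221 and 314 TPM in ENZ.DHT. Its VEH libraries had 351 and 342 TPM, so DHT did not raise it here. CAMKK2, SGK1 and TSC22D3 were the other 3 not called. SGK1 was also lower in DHT (3.89 and 2.67 TPM) than in VEH (5.1 and 6.51 TPM), and for CAMKK2 and TSC22D3 the DHT and VEH libraries overlapped.

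Among 10 tested androgen-repressed genes, 6 were called higher (60%) and 2 lower (20%), and the median log2 fold change was 1.38. Over all genes tested 13.3% were called higher and 15.9% lower, so the count called lower was near that share. BCHE, butyrylcholinesterase (chr3:165772904-165837423), was at 9.84 and 13.4 TPM in DHT and 61.5 and 89.3 TPM in ENZ.DHT, and the log2 fold change was 2.59 (± 0.11 SE, adjusted p = 2.9e-07 by limma). UGT2B17 and UGT2B15, both androgen-conjugating enzymes, OPRK1, the kappa opioid receptor, ACKR3, a chemokine scavenger receptor, and CCN3, a matricellular protein, were the others called higher, UGT2B15 with an adjusted p of 0.19 without the block. Their relatives UGT2B28 and UGT2B11 went the other way: UGT2B28 was at 4.21 and 9.04 TPM in DHT and 0.21 and 0.94 TPM in ENZ.DHT, a log2 fold change of -2.24 (± 0.16 SE, adjusted p = 1.1e-05 by limma). Reads shared within the UGT2B family leave the levels of all 4 uncertain. Androgen-repressed genes called higher changed more in replicate 2 than in replicate 1 in 6 of 6.

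**Figure D3:**
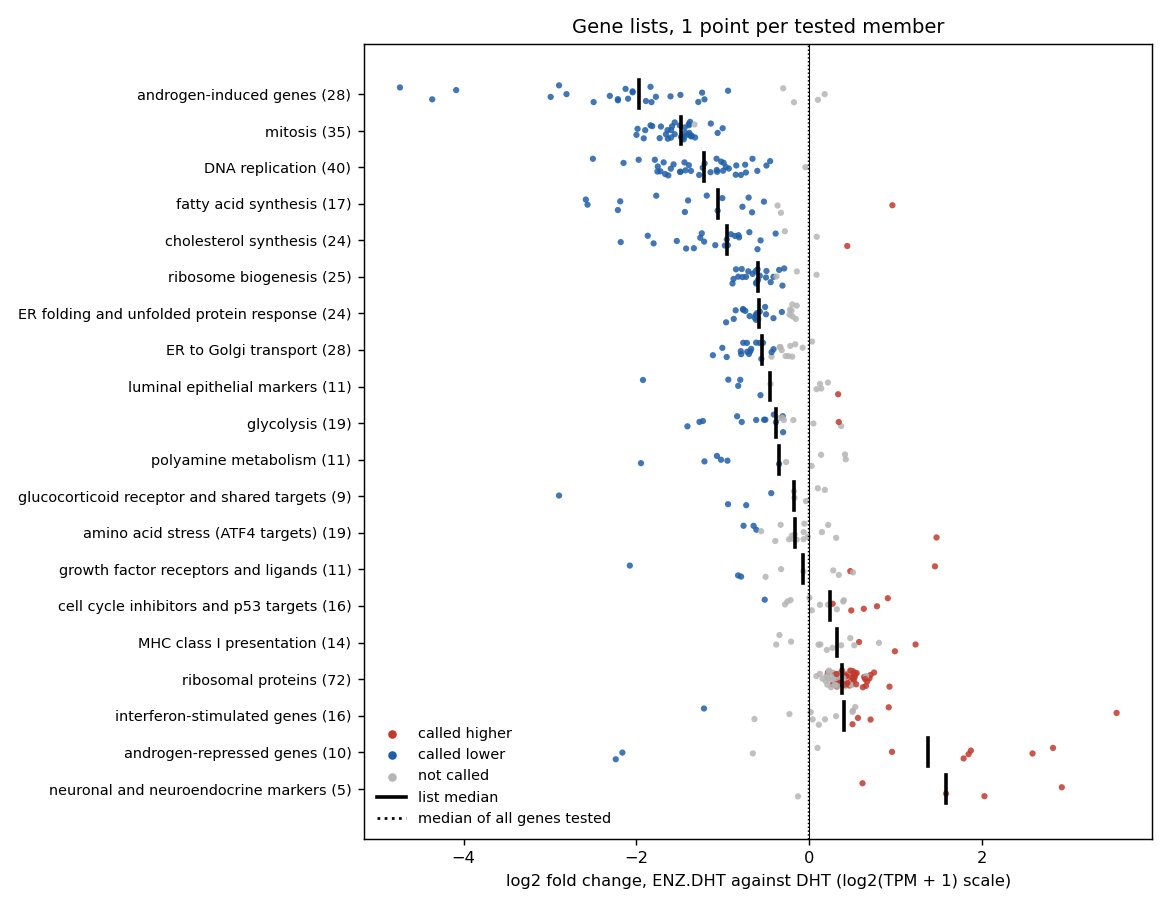
Log2 fold change of ENZ.DHT against DHT (x axis, log2(TPM + 1) scale) for the tested members of 20 gene lists, with 1 point per gene, the number tested in brackets, and a bar at each list's median. Red and blue points are called higher and lower, and grey points were not called; the median of all genes is dotted at -0.01. Androgen-induced genes have the lowest median, -1.97, and the neuronal and neuroendocrine list the highest, 1.59, with 5 genes tested.

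Enzymes of lipid synthesis fell together. In the cholesterol list, 21 of 24 tested genes were called lower (87.5%, against 15.9% of all genes tested) and 1 higher. The median log2 fold change was -0.95. HMGCS1, which makes the HMG-CoA that enters the mevalonate pathway (chr5:43287470-43313412), had 139.6 and 159 TPM in DHT and 27.9 and 57.4 TPM in ENZ.DHT, a log2 fold change of -1.87 (± 0.19 SE, adjusted p = 8.7e-05 by limma). INSIG1, which retains the sterol-sensing complex in the endoplasmic reticulum (ER) and opposes this pathway, fell as well, from 72.8 and 90.9 to 16.1 and 31.6 TPM. The 1 member called higher was TM7SF2, a sterol reductase, at 413 and 296 TPM in DHT and 523 and 433 TPM in ENZ.DHT (adjusted p = 0.34 without the block). MSMO1, a sterol oxidase, was not called, at 55.8 and 68.9 TPM in DHT and 42.6 and 60.8 TPM in ENZ.DHT.

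Of 17 tested genes of fatty acid synthesis and elongation, 14 were called lower (82.4%, against 15.9% of all genes tested) and 1 higher. Their median was -1.06. ELOVL5, an elongase of polyunsaturated fatty acids (chr6:53267404-53348950), stood at 690.3 and 636 TPM in DHT and 111 and 108 TPM in ENZ.DHT, a log2 fold change of -2.59 (± 0.07 SE, adjusted p = 1.2e-08 by limma). The VEH libraries had 115 and 101 TPM, close to the ENZ.DHT level. ELOVL7, another elongase, and ACSL3, an acyl-CoA synthetase of lipid droplets, fell as well, with log2 fold changes of -2.57 and -2.21. FASN, the fatty acid synthase, and SCD, the stearoyl-CoA desaturase, were named after their values were seen. FASN was at 659 and 545 TPM in DHT and 212 and 229.6 TPM in ENZ.DHT, and SCD at 623 and 519 and 132 and 208 TPM. MLXIPL, the carbohydrate-response transcription factor ChREBP, was the member called higher, at 1.79 and 2.87 TPM in DHT and 6.66 and 4.38 TPM in ENZ.DHT. ELOVL6 was not called (log2 fold change -0.33, limma adjusted p = 0.13).

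Genes of dividing cells fell in both pairs, from different starting levels. Of 40 tested genes of DNA replication, 39 were called lower, with a median log2 fold change of -1.22. Of 35 genes of mitosis 34 were called lower, with a median of -1.48. These were 97.5% and 97.1% of the lists, against 15.9% of all genes tested. Without the replicate block 3 replication genes and 0 mitosis genes were called lower, and the no-block adjusted p of the 34 mitosis genes was 0.19 to 0.51. Levels in replicate 2 exceeded those in replicate 1 in every group shown in the plot of dividing-cell genes. The falls were larger in replicate 1: the mitosis median was -1.88 in replicate 1 and -1.16 in replicate 2, and the replication median -1.50 and -1.03. In 26 of the 34 mitosis genes and 36 of the 39 replication genes the libraries of the groups did not overlap. The same held for 8476 of 16636 genes tested.

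MKI67, the proliferation antigen Ki-67 (chr10:128096659-128126423), stood at 11.7 and 24.4 TPM in DHT and 1.11 and 9.99 TPM in ENZ.DHT. Its ENZ.DHT replicate 2 lay just under DHT replicate 1, and the log2 fold change was -1.9 (± 0.29 SE, adjusted p = 0.00094 by limma), with an adjusted p of 0.28 without the block. NDC80, a kinetochore protein, was at 15.5 and 25.01 TPM in DHT and 1.89 and 8.28 TPM in ENZ.DHT, a log2 fold change of -2.0 (± 0.33 SE, adjusted p = 0.0014 by limma), with an adjusted p of 0.19 without the block. UBE2C, the ubiquitin-conjugating enzyme of the anaphase-promoting complex, had 46.9 and 83.2 and 7.56 and 32.2 TPM, and its adjusted p was 0.125 without DHT replicate 1 and 0.077 without ENZ.DHT replicate 1. NUSAP1, a spindle protein, had a log2 fold change of -1.99, and its adjusted p without DHT replicate 1 was 0.064. PTTG1, securin, was the mitosis gene not called, at 46.9 and 103 TPM in DHT and 13.1 and 55.3 TPM in ENZ.DHT.

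MCM2, a subunit of the replicative helicase (chr3:127598411-127622436), was at 36.3 and 58.1 TPM in DHT and 9.17 and 26.5 TPM in ENZ.DHT, a log2 fold change of -1.49 (± 0.19 SE, adjusted p = 0.00034 by limma) with an adjusted p of 0.15 without the block. RRM2, the small subunit of ribonucleotide reductase, which makes deoxynucleotides, stood at 55.1 and 113 TPM in DHT and 4.74 and 33.7 TPM in ENZ.DHT. This was the largest fall in the list, with a log2 fold change of -2.5 (adjusted p = 0.24 without the block). CDC6, the loader of that helicase, had 21.4 and 45.8 TPM in DHT and 2.26 and 15.3 TPM in ENZ.DHT, and the log2 fold change was -2.15 (± 0.29 SE, adjusted p = 0.00039 by limma). CDC45, a component of the active helicase, fell with a log2 fold change of -1.97, and POLE, the catalytic subunit of DNA polymerase epsilon, was not called, at 21.4 and 25.2 TPM in DHT and 24.7 and 20.6 TPM in ENZ.DHT. The adjusted p without the block was 0.22 for CDC6 and 0.22 for CDC45.

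**Figure D4:**
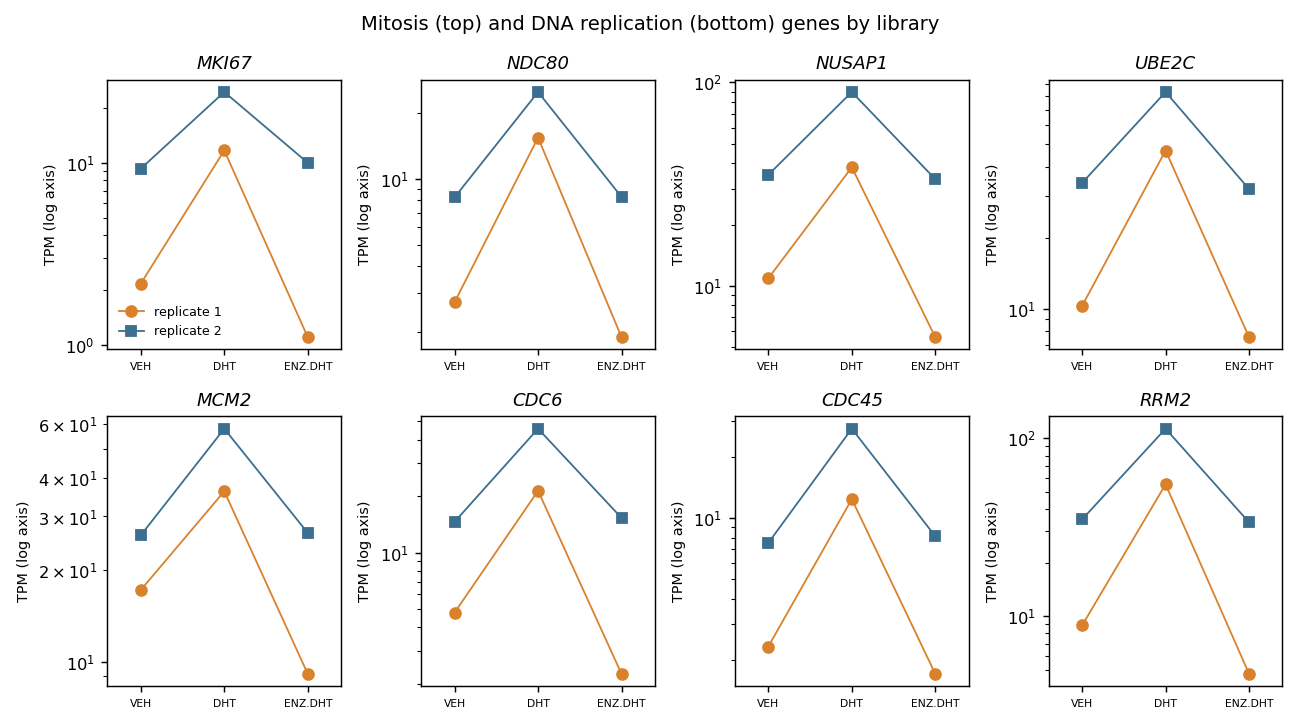
TPM (log axis) of 4 genes of mitosis (top) and 4 of DNA replication (bottom) in VEH, DHT and ENZ.DHT, with 1 point per library and lines joining libraries of the same replicate number. In each gene and each pair the ENZ.DHT library lies below the DHT library, and replicate 2 lies above replicate 1 in every group.

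Promoters of 4 of these genes are shown because members of the lists moved together and shared short motifs. MKI67 and CDC6 were named by the rule, and MCM6, a helicase subunit, and PLK1, a mitotic kinase, were chosen after their values were seen. Each sequence is the 300 bases from 250 before to 50 after the RefSeq start (GRCh38.p14), 5′ to 3′ on the gene's strand: chr17:40287629-40287928 (plus), chr2:135876394-135876693 (minus), chr10:128126374-128126673 (minus) and chr16:23678639-23678938 (plus). In CDC6 and MCM6 the capitals mark TTTGGCGC, a form of the site for E2F factors, at 7 to 14 in CDC6 and at -152 to -145 and -90 to -83 in MCM6. In MKI67 and PLK1 they mark TTTGAA, the core of the cell cycle homology region bound by the repressor complex DREAM, at -47 to -42 and -29 to -24 in MKI67 and at -29 to -24 in PLK1.
CDC6: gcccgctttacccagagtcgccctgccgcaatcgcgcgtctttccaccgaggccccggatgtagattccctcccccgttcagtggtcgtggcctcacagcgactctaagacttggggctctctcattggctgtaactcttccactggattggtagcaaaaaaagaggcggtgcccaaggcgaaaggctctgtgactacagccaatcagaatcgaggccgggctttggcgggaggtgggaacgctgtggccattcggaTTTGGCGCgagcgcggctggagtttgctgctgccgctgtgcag
MCM6: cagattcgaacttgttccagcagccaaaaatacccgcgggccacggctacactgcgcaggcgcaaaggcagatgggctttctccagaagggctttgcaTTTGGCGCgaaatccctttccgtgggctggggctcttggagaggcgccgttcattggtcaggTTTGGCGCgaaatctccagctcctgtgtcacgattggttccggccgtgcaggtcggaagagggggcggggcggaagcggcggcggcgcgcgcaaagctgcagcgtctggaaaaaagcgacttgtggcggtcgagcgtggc
MKI67: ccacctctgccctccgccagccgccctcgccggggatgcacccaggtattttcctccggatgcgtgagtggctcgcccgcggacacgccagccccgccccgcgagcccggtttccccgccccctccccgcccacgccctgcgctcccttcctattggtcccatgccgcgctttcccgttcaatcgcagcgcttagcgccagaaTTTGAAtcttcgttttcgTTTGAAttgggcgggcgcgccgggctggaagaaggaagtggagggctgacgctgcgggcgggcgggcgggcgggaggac
PLK1: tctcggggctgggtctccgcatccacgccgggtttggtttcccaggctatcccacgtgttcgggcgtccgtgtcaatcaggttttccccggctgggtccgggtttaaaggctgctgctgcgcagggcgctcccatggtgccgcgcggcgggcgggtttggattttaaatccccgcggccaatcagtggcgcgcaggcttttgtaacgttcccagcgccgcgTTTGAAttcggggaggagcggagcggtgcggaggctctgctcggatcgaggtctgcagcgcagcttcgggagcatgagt
On both strands, TTTGGCGC or the second form TTTCCCGC was in 16 of 34 promoters of the replication genes called lower (47.1%), against 3.65% of the promoters of all genes tested. TTTGAA was in 20 of 28 promoters of the mitosis genes called lower (71.4%), against 9.38%. Among all genes called lower, these list members included, the shares were 5.05% and 12.4%, and among all called higher 2.05% and 7.7%. For changes of at least 2-fold they were 7.4% and 21.2% in genes called lower. In genes called higher by at least 2-fold they were 0.431% and 14.2%. These differences were not tested. Nearly all members of both lists were called lower, so the high shares describe the lists and do not set responding genes apart within them. The pentamer CCAAT was in 78.6% of the 28 mitosis promoters and in 80.0% of 15 promoters of cholesterol genes called lower. Its share was 43.6% among all genes called lower and 37.4% among all genes tested. For the sterol element TCACNCCAC the count was 1 of the 15 cholesterol promoters (6.67%), against 1.09%. A match is a description of letters and shows no binding.

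Brakes on division moved less. Of 16 cell cycle inhibitors and p53 targets, 5 were called higher (31.2%, against 13.3% of all genes tested) and 1 lower (6.25%, against 15.9%). Without the block 0 were called. CDKN1A, the inhibitor p21, stood at 269 and 188 TPM in DHT and 568 and 316 TPM in ENZ.DHT, a log2 fold change of 0.91 (± 0.18 SE, adjusted p = 0.0037 by limma) with an adjusted p of 0.35 without the block. SESN1, a stress-inducible p53 target, rose by 0.63 and GADD45A, a DNA damage-inducible gene, by 0.79. The call of GADD45A was lost without DHT replicate 1 (adjusted p = 0.09). The list's count of genes called higher was 2 without DHT replicate 1 and 3 without ENZ.DHT replicate 2. CCNG1, a cyclin induced by p53, was not called (log2 fold change 0.22).

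The secretory pathway fell by smaller amounts. Of 24 genes of ER folding and the unfolded protein response, 16 were called lower (66.7%, median -0.58). Of 28 genes of ER to Golgi transport 17 were called lower (60.7%, median -0.54), with 0 called higher in either list. Over all genes tested 15.9% were called lower and 13.3% higher. EDEM1, which hands misfolded glycoproteins to degradation, was at 27.8 and 25.9 TPM in DHT and 11.4 and 15.4 TPM in ENZ.DHT, a log2 fold change of -0.96 (± 0.19 SE, adjusted p = 0.0039 by limma). PDIA6, a disulfide isomerase, fell from 183 and 184 to 81.5 and 126 TPM. LMAN1, a cargo receptor for glycoproteins, was at 84.1 and 88.7 TPM in DHT and 32.1 and 48.3 TPM in ENZ.DHT, and KDELR2, which returns ER residents from the Golgi, at 177 and 174 and 74.5 and 102 TPM. CALR, the chaperone calreticulin, was not called, at 1014 and 907 and 716 and 945 TPM, and neither was COPE, a coatomer subunit, at 267 and 257 and 262 and 209 TPM. The ER folding count was 7 without the block, 7 without DHT replicate 1 and 7 without ENZ.DHT replicate 1, and the transport count was 11 without the block, 9 without ENZ.DHT replicate 1 and 11 without DHT replicate 2.

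Polyamines are abundant products of the prostate. Of 11 genes of their metabolism 6 were called lower (54.5%, against 15.9% of all genes tested) and 0 higher, with 2 called lower without the block. SMS, spermine synthase (chrX:21940709-21994837), stood at 336 and 401 TPM in DHT and 89.5 and 99.9 TPM in ENZ.DHT, a log2 fold change of -1.95 (± 0.07 SE, adjusted p = 1.2e-07 by limma). ODC1, ornithine decarboxylase, the entry to the pathway, fell from 271 and 401 to 94.9 and 211 TPM, with an adjusted p of 0.12 without the block. SRM, spermidine synthase, fell with a log2 fold change of -1.07. OAZ1, the antizyme that lowers ODC1 protein, was not called, at 1366 and 1505 TPM in DHT and 1644 and 1518 TPM in ENZ.DHT.

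In glycolysis 12 of 19 genes were called lower and 1 higher, with a median of -0.38, and 6 were called lower without ENZ.DHT replicate 1 and 7 without DHT replicate 2. Without the block 4 were called lower and 0 higher. With it the shares were 63.2% lower and 5.26% higher, against 15.9% and 13.3% of all genes tested. LDHA, the lactate dehydrogenase subunit, was at 479.9 and 672 TPM in DHT and 157 and 290.4 TPM in ENZ.DHT, a log2 fold change of -1.41 (± 0.1 SE, adjusted p = 7.1e-06 by limma), with an adjusted p of 0.059 without the block. HK2, a hexokinase, and PFKFB2, which makes an activator of phosphofructokinase, fell with log2 fold changes of -1.27 and -1.23, and the adjusted p of HK2 was 0.066 without the block. TPI1 was not called (log2 fold change -0.18). ALDOC, an aldolase, was the gene called higher.

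Ribosome genes split by role. Of 25 genes of ribosome biogenesis, 22 were called lower (88%, against 15.9% of all genes tested) and 0 higher, with a median of -0.60. Of 72 ribosomal protein genes 42 were called higher (58.3%, against 13.3%) and 0 lower, with a median of 0.39. NOLC1 and DDX21, both nucleolar assembly factors, fell with log2 fold changes of -0.89 and -0.87, and NOP16 with one of -0.85. Without the block NOP16 was called and the others were not. RPS3A, a small subunit protein, was at 732 and 1489 TPM in DHT and 1925 and 2065 TPM in ENZ.DHT, a log2 fold change of 0.93 (± 0.19 SE, adjusted p = 0.0044 by limma), with an adjusted p of 0.051 without DHT replicate 1. RPS6, another protein of that subunit, rose by 0.75, and RPS2, the ribosomal protein gene with the highest level among those not called, had 3619 and 3987 TPM in DHT and 4333 and 4739.7 TPM in ENZ.DHT. The rise of ribosomal protein genes was larger in replicate 1 (median 0.55) than in replicate 2 (0.22). The 42 calls became 23 with median-ratio scaling, 1 without the block, and 11 without DHT replicate 1 or without ENZ.DHT replicate 1. Ribosomal protein genes took 10.1% and 13.6% of the total in DHT and 15.0% and 16.1% in ENZ.DHT, and mitochondrial genes took their highest share, 22.3%, in DHT replicate 1. The part of these shares in the result was not tested. For ribosome biogenesis the count was 13 to 14 without DHT replicate 1, DHT replicate 2 or ENZ.DHT replicate 1, and 2 without the block.

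Neuronal and neuroendocrine genes are often looked at in prostate cells deprived of androgen. Of 16 listed genes only 5 passed the filter on low values, so the list could not be read as a whole. Of these 5 genes, 4 were called higher (against 13.3% of all genes tested), with a median of 1.59. Besides DDC, ENO2, a neuronal enolase, was at 16.1 and 15.6 TPM in DHT and 44.98 and 54.8 TPM in ENZ.DHT, a log2 fold change of 1.59 (± 0.14 SE, adjusted p = 3.3e-05 by limma). TUBB3, a neuronal beta-tubulin, had 44.4 and 48.6 TPM in DHT and 70.2 and 73.7 TPM in ENZ.DHT, and NTS, the peptide neurotensin, which was named after its values were seen, had 0.35 and 0.12 and 5.73 and 2.76 TPM. The defining markers CHGA, CHGB, NCAM1 and INSM1 did not pass the filter. SYP, synaptophysin, stood at 2.3 and 1.47 TPM in DHT and 1.8 and 1.44 TPM in ENZ.DHT and was not called.

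Of 11 luminal epithelial markers, 5 were called lower and 1 higher (median -0.45, with -0.74 in replicate 1 and 0.03 in replicate 2), and 3 were called lower without DHT replicate 1 or without ENZ.DHT replicate 1. With all libraries the shares were 45.5% lower and 9.09% higher, against 15.9% and 13.3% of all genes tested. KRT19, a keratin of simple epithelia, was at 40.7 and 22.3 TPM in DHT and 12.8 and 3.9 TPM in ENZ.DHT. KRT18 was at 908 and 794 and 452 and 511 TPM. The log2 fold change was -1.92 (± 0.27 SE, adjusted p = 0.00049 by limma) for KRT19, with an adjusted p of 0.13 without the block. ACPP, prostatic acid phosphatase, had a log2 fold change of -0.8, which was -0.48 without ENZ.DHT replicate 1, where its adjusted p was 0.144. CDH1, E-cadherin, stood at 360.2 and 309.6 TPM in DHT and 189.6 and 316 TPM in ENZ.DHT and was not called. Of the 4 tested markers of other cell types, COL1A1, a collagen chain of fibroblasts, was called higher (11.4 and 15.6 TPM in DHT, 27.5 and 22.1 TPM in ENZ.DHT, log2 fold change 0.84, 0.55 without DHT replicate 1) and KRT14, a basal keratin at no more than 1.68 TPM, was called lower. CD68, of macrophages, was not called.

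Of 14 genes of class I antigen presentation, 3 were called higher (21.4%, against 13.3% of all genes tested) and 0 lower, a count near the background. Without the block 1 was called higher. The heavy chains HLA-B and HLA-C were among the 3. HLA-B was at 65.7 and 44.4 TPM in DHT and 121 and 97.7 TPM in ENZ.DHT, a log2 fold change of 1.0 (± 0.16 SE, adjusted p = 0.0011 by limma), and HLA-C rose by 0.58, or by 0.38 without DHT replicate 1. The adjusted p without the block was 0.067 for HLA-B and 0.24 for HLA-C. Similar sequence among the HLA genes makes the split of reads between them uncertain. B2M, the light chain they share, was not called, at 821 and 945 TPM in DHT and 807 and 568 TPM in ENZ.DHT. Of 16 interferon-stimulated genes, 5 were called higher (31.2%, against the same 13.3%) and 1 lower, 2 were called higher without the block, and 3 were called higher without DHT replicate 1 or without ENZ.DHT replicate 1. IFI6, an interferon-induced protein, rose by 0.92, OAS3, a sensor of double-stranded RNA, fell with a log2 fold change of -1.22 (adjusted p = 0.064 without the block), and ISG15, a ubiquitin-like modifier, was not called, at 66.8 and 74.5 TPM in DHT and 136 and 77.6 TPM in ENZ.DHT.

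Of 11 growth factor receptors, ligands and binding proteins, 3 were called lower (27.3%, against 15.9% of all genes tested) and 2 higher (18.2%, against 13.3%). These counts are too small to set the list apart from all genes, and without the block 1 was called in each direction. IGF1R, the receptor of insulin-like growth factor 1 (chr15:98648539-98964530), stood at 14.5 and 16.9 TPM in DHT and 2.15 and 3.96 TPM in ENZ.DHT, a log2 fold change of -2.08 (± 0.15 SE, adjusted p = 9.2e-06 by limma). IGFBP3, which binds the same factor in the extracellular space, moved the other way, from 111 and 124 to 341 and 308 TPM, a log2 fold change of 1.46 (± 0.17 SE, adjusted p = 0.00017 by limma). IGF2R, the clearance receptor of the related factor, had a log2 fold change of -0.82, and of -0.46 without ENZ.DHT replicate 1, where the call was lost (adjusted p = 0.186), as it was without the block (adjusted p = 0.059). ERBB3, a receptor of neuregulins, was not called, at 119 and 122 TPM in DHT and 101 and 130.3 TPM in ENZ.DHT.

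Of 19 targets of ATF4, the transcription factor of amino acid stress, 1 was called higher (5.26%) and 3 lower (15.8%), no larger a share than the 13.3% and 15.9% of all genes tested, and 0 were called without the block. DDIT3, the stress factor CHOP, was at 26.2 and 27.7 TPM in DHT and 124 and 47.6 TPM in ENZ.DHT. The replicates of ENZ.DHT lay far apart, and its log2 fold change of 1.48 (± 0.3 SE, adjusted p = 0.0045 by limma) had an adjusted p of 0.057 without DHT replicate 1. MTHFD2 and SHMT2, neighbors in mitochondrial folate metabolism, fell with log2 fold changes of -0.76 and -0.61, and the adjusted p of SHMT2 was 0.073 without ENZ.DHT replicate 1. ATF4 itself was not called. Of 9 tested genes listed as shared targets of glucocorticoids and androgens, 4 were called lower (44.4%, against 15.9%), and 2 without the block. Not all were raised by DHT in these cells: the list's median difference of DHT from VEH was 0.07. Besides FKBP5, PER1, a clock gene, and ZBTB16, a zinc finger repressor, fell with log2 fold changes of -0.73 and -0.94. The adjusted p of ZBTB16 was 0.08 without DHT replicate 2 and 0.053 without the block, while TSC22D3, the leucine zipper GILZ, was not called, at 15.03 and 34.4 TPM in DHT and 17.5 and 34.4 TPM in ENZ.DHT.

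How far levels with enzalutamide lay from those without androgen was measured as ENZ.DHT against VEH. This contrast and DHT against VEH share libraries with the main comparison, so values are set side by side. Limma called 1 gene (0.00601%) between ENZ.DHT and VEH, AC008752.1, while 2391 had an unadjusted p under 0.05, and 4559 (27.4%) were called between DHT and VEH. The 95% interval of the difference from VEH lay within 2-fold for 89.6% of genes. KLK3 was 2.33 higher in ENZ.DHT than in VEH on the log2 scale (95% interval 1.62 to 3.05, limma adjusted p = 0.17), against 6.42 for DHT over VEH. KLK2 was 2.21 higher (95% interval 1.3 to 3.11, limma adjusted p = 0.34), against 6.57. Neither kallikrein was called. Their ENZ.DHT and VEH libraries did not overlap, but with 2 libraries per group this is common: 8476 of 16636 genes did not overlap between ENZ.DHT and DHT. The count for VEH was not made. TMPRSS2 differed from VEH by 0.16 (95% interval -0.08 to 0.41), ELOVL5 by 0.02 (-0.14 to 0.18) and PGC by 0.21 (-0.24 to 0.66). For the androgen-induced list the median difference from VEH was -0.06 in ENZ.DHT and 1.90 in DHT, for mitosis -0.13 and 1.40, and for cholesterol synthesis -0.14 and 0.87. It was -0.32 and 0.80 for fatty acid synthesis and -0.43 and -1.60 for androgen-repressed genes. Over all genes tested the median was -0.12 in ENZ.DHT and -0.10 in DHT.

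Enzalutamide and apalutamide are close analogs, both diaryl thiohydantoins, and apalutamide carries a spiro-cyclobutyl ring in place of the geminal methyl groups of enzalutamide and a pyridine in place of a benzene ring. Bicalutamide is an anilide with a sulfone and no thiohydantoin. The antagonists were given at the same 10 µM for the same 48 h, and enzalutamide was compared with each in the presence of DHT, in 2 pairs of groups with p-values adjusted over genes within each pair. Against apalutamide limma called 1 gene (0.00601%), and 232 genes had an unadjusted p under 0.05. The median width of the 95% interval to either side was 0.36 on the log2 scale, and the interval lay within 2-fold for 94.1% of genes. KLK3 stood at 339.8 and 90.3 TPM with apalutamide, a difference of 0.07 (95% interval -0.64 to 0.79). For TMPRSS2 the difference was 0.26 (0.02 to 0.51), for MKI67 -0.19 (-0.84 to 0.46) and for PLA2G2A -0.20 (-0.4 to 0.01), none of them called. The called gene, AC008752.1, was listed at 2.7 and 5.42 TPM in ENZ.DHT and at 0 in the DHT, VEH, ENZ.VEH, APA.DHT and BIC.DHT libraries. Among these groups it passed the filter on low values only through the ENZ.DHT libraries, where it was high. Its calls against APA.DHT, BIC.DHT and VEH are therefore weak, and all were lost with a pseudocount of 0.1.

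Against bicalutamide 2 genes were called (0.012%), AC008752.1 and ELOVL5, and 2062 had an unadjusted p under 0.05. ELOVL5 was at 111 and 108 TPM with enzalutamide and 183 and 166 TPM with bicalutamide, a log2 difference of -0.67 (95% interval -0.83 to -0.5, limma adjusted p = 0.02). KLK3 was at 845 and 445 TPM with bicalutamide, and the difference of -1.73 (-2.44 to -1.01) missed the call with a limma adjusted p of 0.095. TMPRSS2 (-0.59), FKBP5 (-0.72) and MKI67 (-1.13) were each lower with enzalutamide with an interval that did not include 0, and PLA2G2A (0.55) and DDC (0.41) higher, but no adjusted p passed. For BCHE the difference was 0.14 (-0.11 to 0.4) and for UGT2B17 0.11 (-0.28 to 0.51). By list, the median difference from BIC.DHT was -1.03 in mitosis, where 35 of 35 genes were lower with enzalutamide, and -0.63 in DNA replication (38 of 40). It was -0.50 in androgen-induced genes (26 of 28) and -0.06 in androgen-repressed genes (6 of 10), against -0.03 over all genes tested (9229 of 16636). From APA.DHT the medians were smaller in the first 3 of these lists: -0.20 in mitosis (32 of 35 lower), -0.07 in DNA replication (30 of 40) and -0.03 in androgen-induced genes (15 of 28). For androgen-repressed genes the median from APA.DHT was -0.10 (7 of 10), against -0.02 over all genes tested (9798 of 16636).

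**Figure D5:**
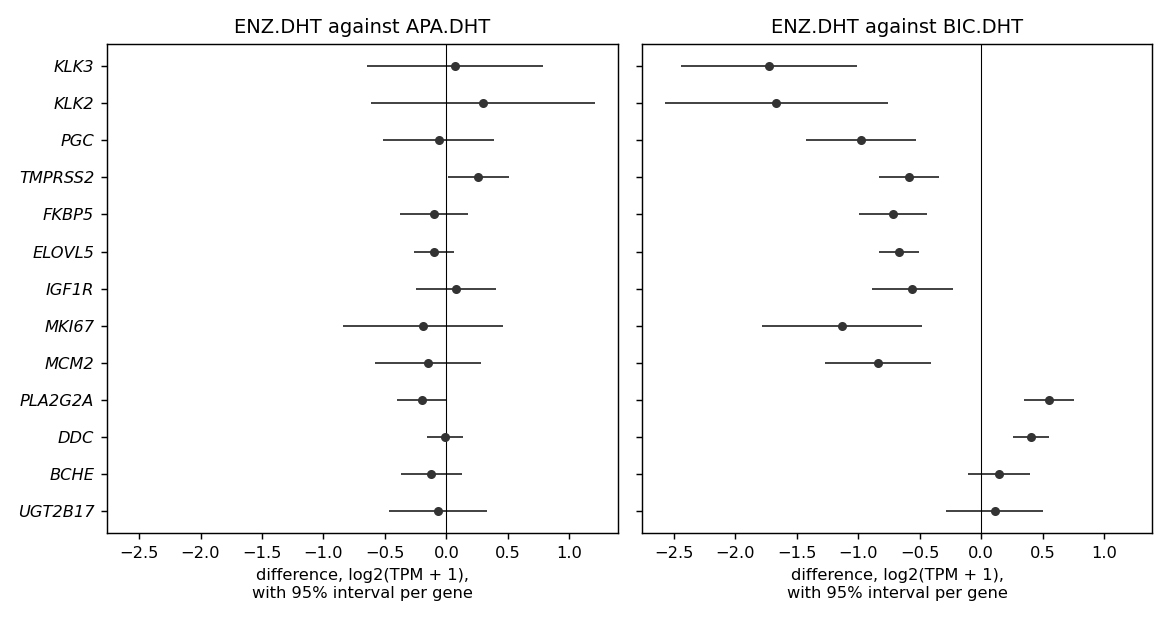
Difference in log2(TPM + 1) of ENZ.DHT from APA.DHT (left) and from BIC.DHT (right) for 13 genes, with points at the estimate and bars at the 95% interval of each gene, not adjusted over genes. All intervals against APA.DHT but that of TMPRSS2 include 0, and 11 of those against BIC.DHT do not; ELOVL5 against BIC.DHT is the only call among these genes.

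Whether the effect of enzalutamide depended on DHT was tested as the interaction, the effect with DHT minus the effect without it. Limma called 1648 genes (9.91%), 696 with a positive (4.18%) and 952 with a negative difference (5.72%). Enzalutamide without DHT, against VEH, gave 0 calls (0.0%), with 483 genes at an unadjusted p under 0.05 and 0 calls without the block. KLK3 stood at 72.9 and 71.5 TPM in ENZ.VEH and 53.04 and 24.01 TPM in VEH, so its log2 fold change was 0.99 without DHT and -4.09 with it. For PLA2G2A the values were -0.07 without DHT and 4.16 with it.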

How the data were processed

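Gene expression in 16 libraries of LNCaP cells (8 groups of 2) was measured by stranded, poly(A)-selected RNA sequencing, 125 bp paired reads and about 40 M read pairs per library per the labels. The submitters' processing notes name FastQC 0.11.9, Trim Galore 0.6.5, STAR 2.7.2b, RSEM 1.3.3 and build GRCh38. The authors deposited TPM per gene symbol, unpooled. The table held 60642 symbols, 26439 of them at 0 throughout, and 0 columns of other samples. TPM keeps no depth, and a rise of abundant transcripts lowers all others.

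Groups and replicate numbers came from the labels. Genes with TPM of at least 1 in 2 or more libraries were kept (16636), and log2(TPM + 1) was fitted with limma 3.58.1 in R 4.3.3 (8 group means, replicate block, trend, all 16 libraries), adjusted by Benjamini-Hochberg within each contrast. The study states no differential test. The block is in the fit because the libraries were paired by the number in their labels. What that number stands for is not given. As a check, the replicate 1 minus replicate 2 differences correlated across genes in all 28 pairs of groups (r = 0.20 to 0.64, 0.20 for ENZ.DHT with DHT). Of the 16 libraries no pair was identical. P-values measure the spread between these libraries only.

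Genes were named by rule: KLK3, KLK2, TMPRSS2, FKBP5, MKI67 and MCM2, the 8 highest and 8 lowest called genes with a mean of at least 5 TPM and no overlap, up to 3 called members and the most abundant uncalled member of each of 21 hand-written lists, and genes of contrasts with 5 or fewer calls. Some genes that the rule covers are not reported here. Some genes of the rule are given only in counts. The members and lists were chosen with earlier results of these data known, so list counts are descriptions. Positions and promoters are from RefSeq tables of GRCh38.p14, with 90 of 93 named genes and 10584 tested genes matched. The fit was tested on simulated data. Alternatives were no block, a pseudocount of 0.1, other filters, median-ratio scaling, removal of mitochondrial genes, only the groups compared, and each library left out.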

Additional observations from a re-analysis of the deposited data

Results flagged for a closer look

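The effect of enzalutamide differed between cells with and without DHT in a test of the difference itself. The interaction was called in 1648 of 16636 genes by limma with Benjamini-Hochberg adjustment, and in 271 without the replicate block. On the log2 scale the difference of effects was -5.08 for KLK3, -5.49 for KLK2, -3.05 for TMPRSS2, -2.80 for FKBP5, -4.73 for PGC and 4.23 for PLA2G2A, each called with and without the block. The effect without DHT was 0.99 for KLK3 and 1.13 for KLK2, and between -0.10 and 0.05 for the other 4. These 6 genes were picked with their response to DHT known. KLK3, KLK2 and PGC were also among the 8 lowest genes of ENZ.DHT against DHT, and PLA2G2A among the 8 highest. That contrast is part of the difference, so the calls of these genes partly restate it. The ENZ.DHT, DHT, ENZ.VEH and VEH libraries all enter the difference, and leaving out VEH replicate 2 gave 752 calls.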

How the results depend on the processing

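Depth is unknown, groups hold 2 libraries and the calls rest on the spread pooled over 8 groups. With only the 4 libraries compared, ENZ.DHT against DHT had 66 calls with the block (21 higher, 45 lower) and 7 without it. Its count was 1605 with no replicate block, between 4123 and 5569 under the other filters, pseudocount and scalings, and 2793 to 4901 when 1 library was left out, where the lone library of a group was assumed to vary like the other groups. Of its calls, 45.5% were higher, against 39.8% without ENZ.DHT replicate 2 and 52.3% without DHT replicate 2. Of 93 named genes, 32 lost their call with no replicate block and 61 kept their side of the threshold, while 51 lost it with only the 4 libraries compared and the block and 68 with only these libraries and no block. Of 73 called, 58 kept the call without each of the 4 libraries and 15 lost it without 1 or more: SNORA65, AC091179.3, RNA5SP392, NUSAP1, UBE2C, CREB3L2, SEC24A, DDIT3, SHMT2, ZBTB16, ACPP, GADD45A, IGF2R, RPS3A and RPL9.

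Among the named genes, the direction turned only in genes that were not called. When 1 library was left out, STEAP2 had log2 fold changes of -0.063 (without ENZ.DHT replicate 2) to 0.43, and POLE -0.21 to 0.13 (without DHT replicate 2), with 0.07 without ENZ.DHT replicate 2. NHP2, a ribosome biogenesis gene, had -0.29 to 0.013 (without DHT replicate 2), and ERBB3 -0.24 to 0.10 (without ENZ.DHT replicate 1). Without DHT replicate 1 OAZ1 had -0.011, ATF4 -0.033 and TSC22D3 -0.092, each the lowest value, and the highest were 0.29, 0.48 and 0.297.

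ENZ.DHT against APA.DHT had 0 calls with a pseudocount of 0.1 (217 genes at an unadjusted p under 0.05), 0 under the stricter filter (85), 0 with only these groups with the block (867) or without it (73), 8 with no filter on low values, and 0 to 10 when a library was left out (10 without ENZ.DHT replicate 2). ENZ.DHT against BIC.DHT had 1 call with no replicate block, with a pseudocount of 0.1 and with median-ratio scaling, 4 with mitochondrial genes removed, 14 with no filter, 0 with only these groups with the block (904 at an unadjusted p under 0.05) or without it (274), and 0 to 37 when a library was left out (37 without ENZ.DHT replicate 2). ENZ.DHT against VEH had 0 calls with a pseudocount of 0.1 (2355 at an unadjusted p under 0.05) and under the stricter filter (2012), 12 with no filter, 4 with only these groups and the block, 0 without it (238), and 0 to 33 when a library was left out (33 without ENZ.DHT replicate 2). The interaction had 271 calls with no replicate block, 317 with only its groups and the block, 43 with only its groups and no block, and 752 to 1823 when a library was left out (1012 without DHT replicate 1, 977 without VEH replicate 1, 752 without VEH replicate 2). The cause of these shifts was not tested. Median-ratio scaling moved the median of ENZ.DHT against VEH from -0.12 to -0.01, and that of ENZ.DHT against DHT stayed within 0.01 of its value.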
